A study of Mus musculus with 2 samples.

Results

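Opposite-strand genes are annotated long non-coding RNA (lncRNA) genes that carry the name of a coding gene followed by "os" because they are transcribed from the other DNA strand at that gene. They were taken from the annotated table by name alone, as every gene name ending in "os" with or without a number. Of 10944 annotated gene names, 287 matched, and 282 of these are described here; Gimap1os, Bach2os, Epb41l4aos, Ttc39aos1 and Tnk2os were not taken as members. The samples were spleen cells of mice with collagen-induced arthritis (CIA), a joint disease provoked by collagen immunization, and of mice that received no treatment, with 1 library each. The titles give day 40 for both, whereas the label on treatment puts sacrifice of CIA mice at 42 days from the first immunization. The sources used here do not give strain, age, sex or how many mice went into a library. With 1 library a group, the differences given have no replicate check and compare 2 libraries, not the conditions.

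Antisense transcription is common at mammalian genes. An opposite-strand RNA can begin beside the start of its partner and run away from it, as at a promoter that fires in both directions, or it can begin elsewhere and run through the partner's exons or introns. Some such RNAs act on the chromatin or the transcription of the partner, some act elsewhere, and for most no function is known.

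A partner gene on the same chromosome was found for 280 of the 282 genes in GENCODE M21, 2 of them under a newer symbol (Mrpl58 for Ict1os and Plpbp for Proscos). No partner was found for Snhg7os, and Etos1 matches the rule by its letters only. By position, 69 genes were head-to-head, meaning that the annotated starts of the pair lie within 1 kb of each other. A further 119 overlapped a partner exon, 78 overlapped the partner's span without touching an exon, and 14 had no overlap. GENCODE types 254 of the 282 as antisense and 2 as bidirectional promoter lncRNA.

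The promoters of 3 head-to-head pairs are shown because these pairs hold the highest and the lowest ratio above the floor and the highest level among the head-to-head genes. The sequences are the RefSeq promoter windows of GRCm38.p6, read 5′ to 3′ on the minus strand. For Dhrs13os the window lies at chr11:78032616-78032915 and the capitals mark the first 50 bases of Dhrs13os, which lie inside the Dhrs13 gene. For Tmem147 (chr7:30729485-30729784) and Brip1 (chr11:86201144-86201443) the capitals mark the bases from one annotated start of the pair to the other, 40 and 178 bases including both starts.
Dhrs13os: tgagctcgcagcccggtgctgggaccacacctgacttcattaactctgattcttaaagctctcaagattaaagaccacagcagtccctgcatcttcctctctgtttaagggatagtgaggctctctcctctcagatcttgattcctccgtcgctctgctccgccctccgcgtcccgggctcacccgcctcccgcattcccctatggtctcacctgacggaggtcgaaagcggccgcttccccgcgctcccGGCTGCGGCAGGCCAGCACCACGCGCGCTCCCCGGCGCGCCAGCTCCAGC
Tmem147 and Tmem147os: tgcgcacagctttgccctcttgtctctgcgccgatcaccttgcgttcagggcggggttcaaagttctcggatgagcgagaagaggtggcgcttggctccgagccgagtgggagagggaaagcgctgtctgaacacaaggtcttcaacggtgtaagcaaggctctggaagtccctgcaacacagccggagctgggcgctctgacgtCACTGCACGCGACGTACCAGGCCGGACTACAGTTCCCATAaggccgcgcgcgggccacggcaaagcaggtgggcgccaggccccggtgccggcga
Brip1 and Brip1os: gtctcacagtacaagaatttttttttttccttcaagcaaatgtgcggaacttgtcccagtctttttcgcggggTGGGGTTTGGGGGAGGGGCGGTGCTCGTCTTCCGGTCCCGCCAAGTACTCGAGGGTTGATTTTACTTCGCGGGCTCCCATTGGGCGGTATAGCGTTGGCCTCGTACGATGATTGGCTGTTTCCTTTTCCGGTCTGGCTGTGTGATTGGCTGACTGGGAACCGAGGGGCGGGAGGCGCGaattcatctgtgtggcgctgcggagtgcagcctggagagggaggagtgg

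The windows have a GC content of 62.7%, 64.0% and 57.0% and hold 24, 28 and 21 CpG dinucleotides. Each holds a GC box (GGGCGG, searched on both strands), the Brip1 window also a CCAAT box and the ETS letters CCGGAAG, and the Tmem147 window the cyclic AMP response element TGACGTCA. RefSeq windows matched 166 of the 282 genes. Head-to-head genes had a median GC content of 62.8% and 23 CpGs over 46 windows, against 51.8% and 5.5 over 64 windows of genes with exon overlap, 49.8% and 5 over 44 windows of genes with span overlap only, and 52.7% and 7 over all 32851 windows of the table. A GC box was present in 28 of the 46 head-to-head windows (60.9%), in 11 of 64 (17.2%) and 7 of 44 (15.9%) of the other classes and in 35.7% of all windows. The TATA letters TATAAA were present in 1 of the 46 head-to-head windows, against 13.6% of all windows. CCAAT was present in 30.4% of the head-to-head windows and 37.4% of all, CCGGAAG in 6.52% and 8.86%, and TGACGTCA in 2.17% and 1.79%. None of these motifs contains another, and since head-to-head windows can hold the partner's promoter, these letters cannot be assigned to either gene of a pair.

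Levels are given in FPKM, fragments scaled by transcript length and library size, which are per length and can be set side by side between genes. Most opposite-strand genes were low in spleen, and in such bulk samples fewer cells of a type and less RNA per cell cannot be told apart. The files hold lncRNA, so protein-coding markers of spleen cells were not analysed here. Of the 282 genes, 102 were listed at the floor value, read as 0, in both libraries, 25 were above it in the CIA library only, 14 in the healthy library only, and 141 in both. A level of at least 0.5 FPKM in either library was reached by 87 genes, at least 1 FPKM by 62 and at least 5 FPKM by 6. Scpep1os, at 0.169 FPKM (CIA) and 0.491 FPKM (healthy), lay just under the limit of 0.5 FPKM, and Map2k3os, at 0.400 and 0.508 FPKM, just above it. The depth of the libraries is unknown because FPKM keeps no counts and the low values show no steps of whole reads.

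The 2 most abundant genes were Mypopos and Brip1os. Mypopos, opposite Mypop, a Myb-related transcription factor gene, stood at 17.8 FPKM (CIA) and 9.34 FPKM (healthy). Brip1os, which starts 177 bases from Brip1, the gene of a DNA repair helicase that binds BRCA1, stood at 13.3 FPKM (CIA) and 16.9 FPKM (healthy). The most abundant gene was thus a different one in each library. Both genes touch other coding exons: 126 bases of Mypopos lie over Mypop exons and 1312 of the 6498 exonic bases of Brip1os over exons of Ints2 and Med13. No strand setting is stated, so over shared exons the reads of both genes cannot be told apart.

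The next in mean level was Asb17os, opposite Asb17, a gene of the ankyrin repeat and SOCS box family, at 5.14 FPKM (CIA) and 7.11 FPKM (healthy). Far1os, opposite a fatty alcohol-producing reductase gene of peroxisomes, stood at 4.88 and 5.05 FPKM, nearly level between the libraries. Ino80dos, opposite a subunit gene of the INO80 chromatin remodeller, stood at 5.10 FPKM (CIA) and 3.95 FPKM (healthy). Uckl1os, opposite a gene related to uridine-cytidine kinases, stood at 5.37 FPKM (CIA) and 2.87 FPKM (healthy). Rab10os, opposite the vesicle traffic GTPase gene Rab10, stood at 4.963 and 3.005 FPKM. Of the remaining abundant genes, Aknaos, Pitpnm2os2, H3f3aos, N4bp2os, Man2c1os, Usp46os2, Atxn7l1os2 and Bcas3os1 had levels between 2.18 FPKM (Pitpnm2os2, healthy library) and 4.39 FPKM (Pitpnm2os2, CIA library). Aknaos, opposite the AT-hook gene Akna, stood at 3.67 and 3.24 FPKM. Of these 15 genes, 5 were lower and 10 higher in the CIA library. With 0.1 FPKM added to both levels all 15 lay within 2-fold, but Pitpnm2os2 sat at the limit, with a log2 ratio of 0.98 that became 1.004 with 0.01 FPKM added.

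**Figure D1:**
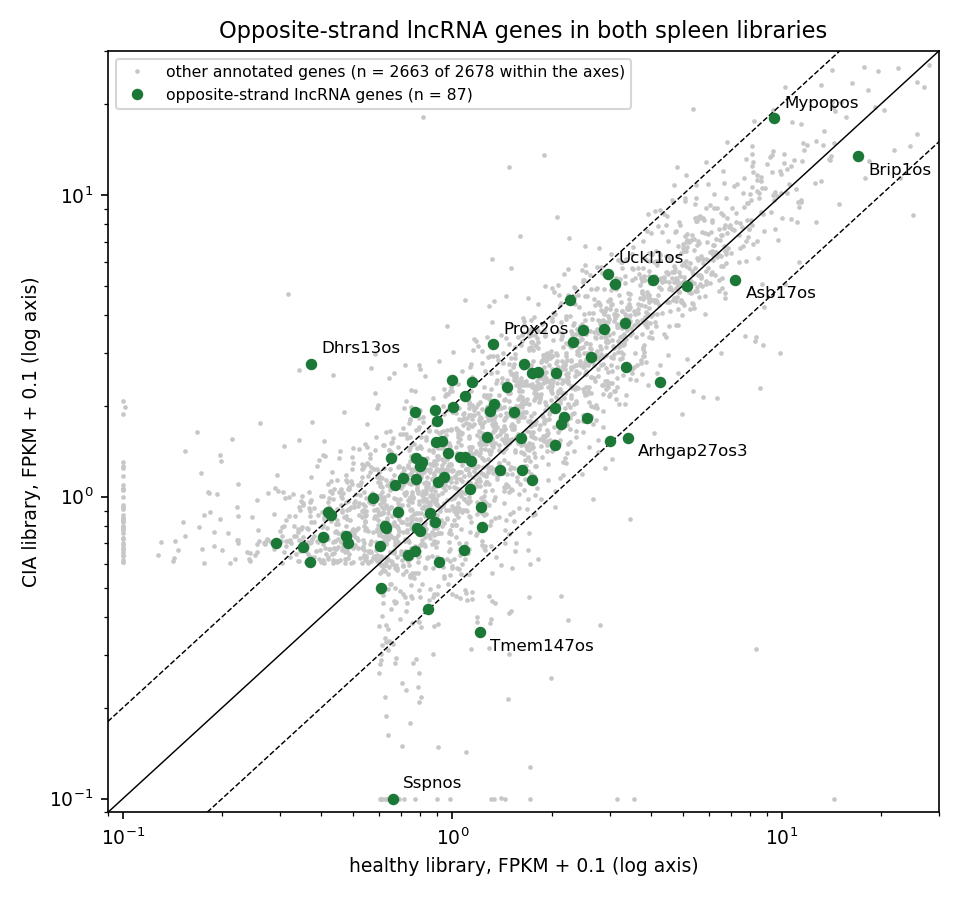
Level of each gene with at least 0.5 FPKM in either library, in the healthy library (x axis) and in the CIA library (y axis), both as FPKM + 0.1 on log axes. Green points are the 87 opposite-strand genes and grey points the other annotated genes, of which 2663 of 2678 lie within the axes; the solid line marks equal levels and the dashed lines 2-fold differences. Most green points lie between the dashed lines, with Dhrs13os, Tmem147os and Sspnos farthest outside.

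The ratio of the libraries was computed as log2((CIA FPKM + 0.1)/(healthy FPKM + 0.1)), a scale that understates differences of low genes. Among the 87 opposite-strand genes past 0.5 FPKM, 10 exceeded a 2-fold difference toward CIA and 3 toward the healthy library, and 74 lay within 2-fold. Over all 2765 annotated genes past the same limit, 14.0% were past 2-fold on the higher side and 4.20% on the lower side. The shares among the opposite-strand genes, 11.5% and 3.45%, lay near this background. Their median log2 ratio was 0.36, against 0.30 for all annotated genes. Of the 87, 58 were above 0, as were 1925 of the 2765 annotated genes. The common shift of 0.30 (1.23-fold) is contained in every ratio. With the shift subtracted, 2 genes, Dhrs13os and Lrrc75aos2, were 2-fold higher and 6 were 2-fold lower. The shares of all annotated genes after this subtraction were not computed, so these 2 counts have no background beside them. The other antisense lncRNA genes of the table, which are not members but overlap a coding exon on the opposite strand, gave 99 of 774 (12.8%) higher, 43 (5.56%) lower and a median of 0.28. Of these 774, 516 were above 0.

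Dhrs13os had the highest ratio, at 2.66 FPKM (CIA) and 0.272 FPKM (healthy), a log2 ratio of 2.89. It was the only one of the 10 higher genes past 4-fold. It has 2 exons on chromosome 11 (78030012 to 78032665, minus strand), and its start lies 385 bases inside Dhrs13, a gene of the short-chain dehydrogenase and reductase family. Of its 2429 exonic bases, 914 (37.6%) lie over exons of Dhrs13 or of Phf12, a zinc finger gene of a Sin3 corepressor complex. The authors' deposited table gives it a p of 1, as for 51 of the 104 transcripts of opposite-strand genes with at least 0.5 FPKM.

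Lrrc75aos2 stood at 1.81 FPKM (CIA) and 0.670 FPKM (healthy), with 86 of its 1227 exonic bases over exons of Lrrc75a. Fbxl12os stood at 2.34 and 0.898 FPKM. It lies 846 bases from Fbxl12, which encodes a substrate receptor of SCF ubiquitin ligases, and touches no coding exon. Its 3 transcripts with at least 0.5 FPKM had log2 ratios of 1.15, 1.31 and 1.61. Each reached that limit in the CIA library only, so the limit itself fixed that they were higher there. Another transcript, at 0 (CIA) and 0.187 FPKM (healthy), went the other way.

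Prox2os, opposite the homeobox gene Prox2, stood at 3.09 FPKM (CIA) and 1.23 FPKM (healthy), and 56.8% of its exonic bases lie over Prox2 exons. Rptoros, opposite the gene of Raptor, the scaffold of the growth-controlling kinase complex mTORC1, stood at 2.30 and 1.05 FPKM. Anxa11os, opposite a calcium-dependent phospholipid-binding annexin gene, stood at 1.84 and 0.785 FPKM. Each of these 3 genes has 1 annotated transcript.

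Lower in level but also 2-fold higher in the CIA library were Ict1os (1.25 against 0.550 FPKM), Sorbs2os (0.790 against 0.318 FPKM), Sox5os5 (0.772 against 0.327 FPKM) and Tnfsf13os (0.604 against 0.191 FPKM). Ict1os is opposite Mrpl58, a mitochondrial ribosome gene, Sorbs2os opposite an adaptor gene of the actin cytoskeleton, and Sox5os5 within the span of the transcription factor gene Sox5 without touching its exons. Tnfsf13os is opposite Tnfsf13, the gene of APRIL, a cytokine that sustains plasma cells, and 42.7% of its exonic bases lie over coding exons. With a pseudocount of 1 FPKM the log2 ratios of these 4 genes ranged from 0.42 for Sox5os5 to 0.54 for Ict1os.

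The 3 lower genes were Sspnos, Tmem147os and Arhgap27os3. Sspnos, opposite Sspn, the gene of sarcospan in the dystrophin complex of muscle, was listed at 0 for CIA and at 0.559 FPKM for the healthy library. Tmem147os stood at 0.256 FPKM (CIA) and 1.11 FPKM (healthy), a log2 ratio of -1.76. It starts 39 bases from Tmem147, an endoplasmic reticulum membrane protein gene, and its exons also touch Gapdhs on the opposite and Sbsn on the same strand. Arhgap27os3, which lies over Arhgap27 but not over its exons, stood at 1.47 FPKM (CIA) and 3.30 FPKM (healthy). Among p-values in the authors' deposited table its 0.0534 was the lowest of the 520 transcripts, of which none was under 0.05; that table compares the same 2 libraries. The authors' deposited table nevertheless marks 9 of the 520 transcripts as significant, 7 higher and 2 lower in CIA, by a rule that the sources used here do not give. They belong to Anxa11os, Galnt6os, Pitpnm2os2, Prox2os, Rapgef4os2, Rptoros and Tmcc3os on the higher side and to Arhgap27os3 and Zeb2os on the lower side.

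**Figure D2:**
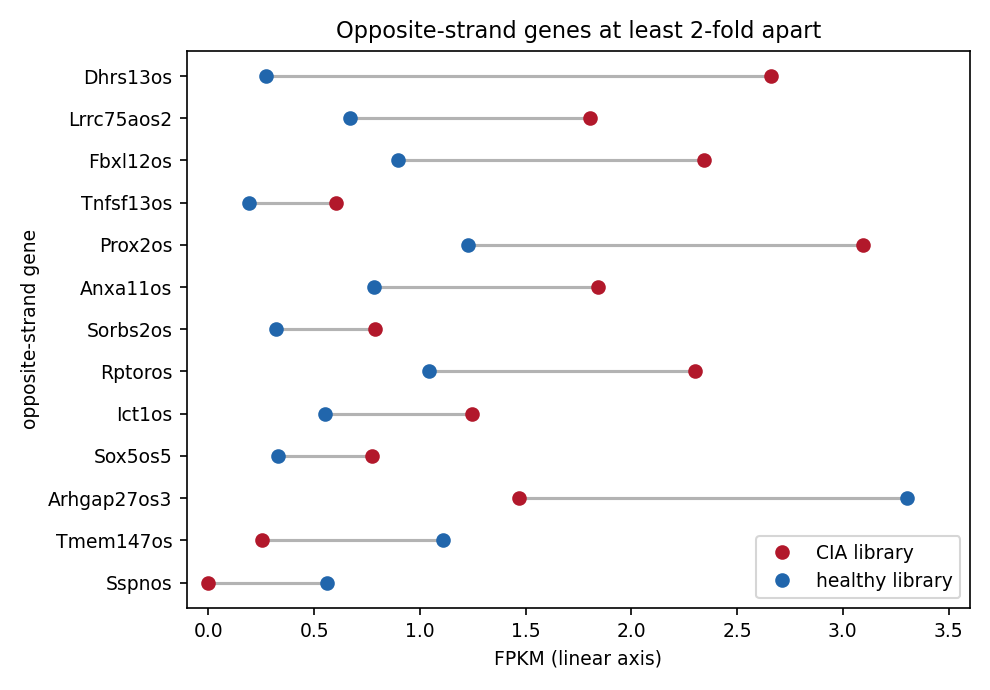
FPKM (x axis, linear) of the 13 opposite-strand genes at least 2-fold apart, ordered by ratio, in the CIA library (red) and the healthy library (blue). The 10 upper genes are higher in the CIA library, and Arhgap27os3, Tmem147os and Sspnos, at the bottom, are higher in the healthy library.

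The direction of Arhgap27os3 depended on which transcripts were counted. The second table holds assembled transcripts that match no annotated one, and 2 of these lie at Arhgap27os3 on its own strand. MSTRG.7067.1, which shares a splice junction with it, stood at 6.73 FPKM (CIA) and 2.81 FPKM (healthy). MSTRG.7067.3, which overlaps its exons, stood at 4.95 and 0.752 FPKM, and the authors' deposited table gives it p = 0.000267. With both added, the locus stood at 13.2 FPKM (CIA) and 6.86 FPKM (healthy), a log2 ratio of 0.93 in place of -1.12.

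Assembled transcripts carried the name of 20 opposite-strand genes, 26 transcripts in all, of which 21 lay within introns and 19 had no strand. Of the 26, 8 were past 2-fold on the higher side and 3 on the lower side, against 17.2% and 11.1% of all 16773 assembled transcripts with at least 0.5 FPKM in a library. Such unstranded pieces cannot be assigned to the opposite-strand gene or to its partner. Of the 87 genes, 17 had at least 1, and adding them moved the log2 ratio of Junos from -0.70 to 0.81, of Fam120aos from -0.40 to 0.45, of Foxd2os from 0.78 to -0.01, of Wt1os from 0.54 to 2.12, of Zmiz1os1 from 0.70 to 1.61 and of Mkln1os from -0.08 to -1.16. For the other 10 of the 17, apart from Arhgap27os3, the move was under 1.5-fold.

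**Figure D3:**
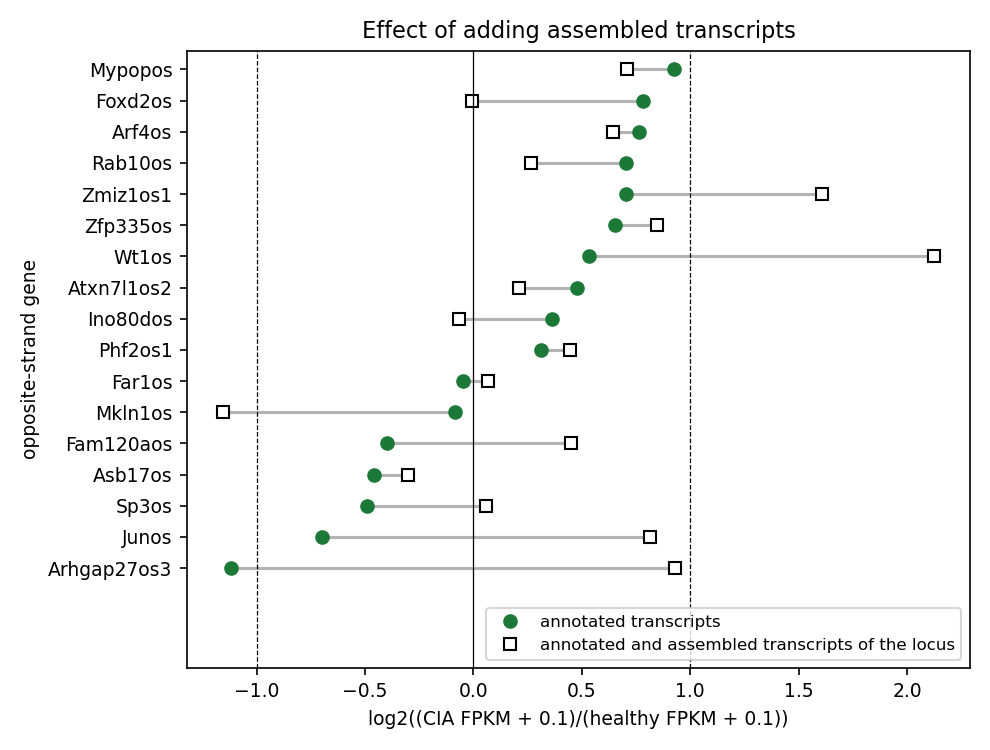
Log2 ratio of the CIA to the healthy library (x axis, with 0.1 FPKM added) for the 17 opposite-strand genes that have assembled transcripts of the same name. Green circles use annotated transcripts and open squares add the assembled ones; Arhgap27os3, Junos, Fam120aos, Sp3os and Far1os pass from below to above 0, Foxd2os and Ino80dos from above to just below 0, and Mkln1os moves from -0.08 to -1.16.

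Isoforms of one gene did not always lie on the same side. Of the 87 genes, 38 have several annotated transcripts, and 15 had at least 2 with 0.5 FPKM or more. In 7 of these 15 (Atad3aos, H3f3aos, Ino80dos, Rab26os, Uckl1os, Usp46os2 and Zfp335os) the transcripts lay on different sides of 0. At Rab26os the log2 ratios were as small as -0.21 and 0.21. Each Atad3aos transcript past 0.5 FPKM reached it only in the library where it was higher, so the limit fixed their sides. The same share over other annotated genes was not computed.

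H3f3aos, opposite the gene of the replacement histone H3.3, stood at 2.29 FPKM (CIA) and 4.15 FPKM (healthy) as a gene. Its long transcript of 2905 bases stood at 2.29 and 1.74 FPKM, higher in the CIA library. Its short transcript of 229 bases was listed at 0 for CIA and at 2.41 FPKM for the healthy library, so the direction of the gene came from the short form. Uckl1os showed the same kind of split. One transcript was level at 2.79 and 2.85 FPKM, while the other stood at 2.58 FPKM (CIA) and 0.0201 FPKM (healthy). At Ino80dos the 1576-base transcript stood at 1.20 and 0.00390 FPKM, and the 1-exon transcript at 3.24 and 3.52 FPKM. In contrast, all 4 transcripts of Mypopos were higher in the CIA library, with log2 ratios from 0.45 to 1.81, and both transcripts of Brip1os were lower, at -0.42 and -0.06.

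Over all annotated genes past 0.5 FPKM, 14.0% were 2-fold higher and 4.20% lower. Of the 69 head-to-head genes, 20 passed that limit, with a median log2 ratio of 0.31. Of these 20, 1 was 2-fold higher (Dhrs13os) and 1 lower (Tmem147os), 5% each. Brip1os, H3f3aos, Man2c1os and N4bp2os were the most abundant of them. Man2c1os, opposite a cytosolic alpha-mannosidase gene, stood at 3.47 FPKM (CIA) and 2.38 FPKM (healthy), and N4bp2os at 3.49 and 2.79 FPKM.

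Junos, at the AP-1 gene Jun, stood at 0.566 FPKM (CIA) and 0.981 FPKM (healthy). None of its annotated transcripts reached 0.5 FPKM alone, and they differed in direction. For example, 1 stood at 0.288 FPKM (CIA) and 0.0244 FPKM (healthy) and another at 0.0633 and 0.445 FPKM. Map2k3os, at the gene of a kinase that activates p38, stood at 0.400 and 0.508 FPKM. Rbm3os, at the gene of a cold-inducible RNA-binding protein, stood at 1.04 and 1.64 FPKM, and Mkln1os at 0.963 and 1.03 FPKM. All 4 were lower in the CIA library, within 2-fold. Higher in the CIA library were Phf2os1, at a histone demethylase gene (1.26 against 0.991 FPKM), Zfp335os, at a zinc finger gene needed for T cell maturation (2.21 against 1.37 FPKM), and Zbtb11os1 (2.497 against 1.724 FPKM). Arf4os, at a Golgi GTPase gene (1.42 against 0.794 FPKM), Lppos (1.30 against 0.872 FPKM), Foxd2os (0.887 against 0.474 FPKM), Wt1os (0.600 against 0.383 FPKM) and Atad3aos (1.06 against 0.844 FPKM) were higher as well. Cep83os, at a centriole gene, was nearly level at 1.46 and 1.51 FPKM, and Fam120aos stood at 0.823 and 1.12 FPKM.

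The 42 genes with exon overlap had a median log2 ratio of 0.42, with 7 genes 2-fold higher (16.7%) and 1 lower (2.38%). Over all annotated genes past 0.5 FPKM these shares were 14.0% and 4.20%. The 24 genes with span overlap only had a median of 0.23, with 1 higher and 1 lower (4.17% each). The single gene without overlap past 0.5 FPKM was Fbxl12os. Taking every coding gene into account, 58 of the 87 genes shared exonic bases with a coding exon. These had a median of 0.36, with 8 higher (13.8%) and 2 lower (3.45%). The other 29 had a median of 0.15, with 2 higher (6.90%) and 1 lower (3.45%). The part that reads from overlapping mRNA have in these values was not tested, since mRNA levels are not analysed here.

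**Figure D4:**
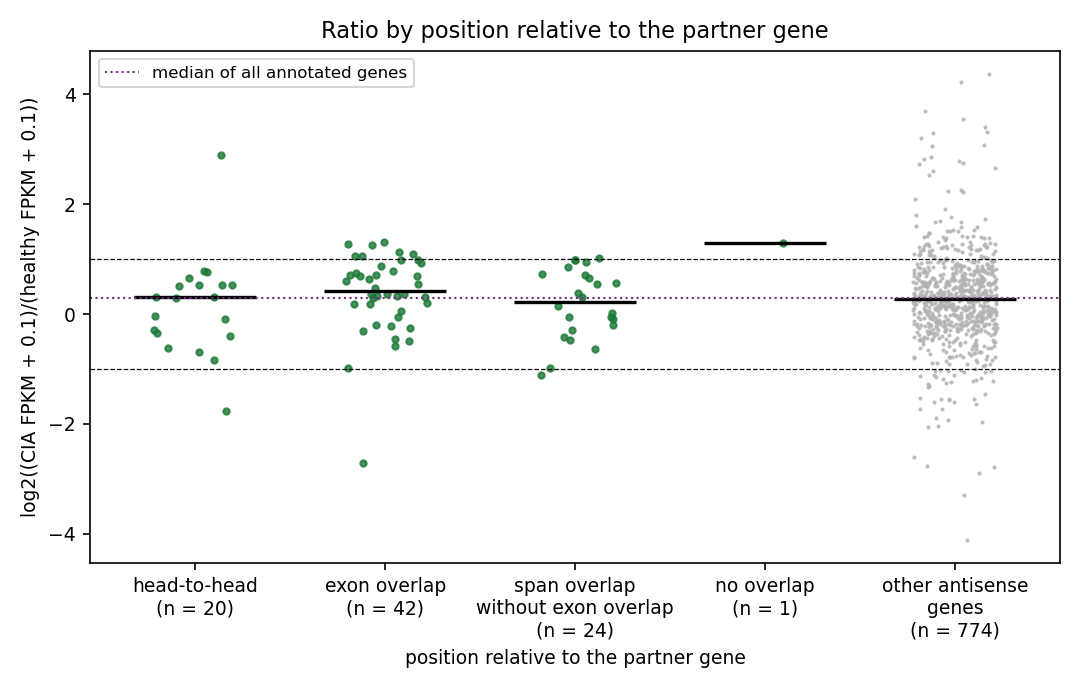
Log2 ratio of the CIA to the healthy library (y axis, with 0.1 FPKM added) of the opposite-strand genes past 0.5 FPKM, by position relative to the partner, beside the 774 other antisense genes. Each point is 1 gene, horizontal bars are medians, the dotted line is the median of all annotated genes (0.30) and dashed lines mark 2-fold; the classes overlap widely, with medians of 0.31, 0.42 and 0.23 for the 3 large ones.

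Roles were assigned by the first letters of the partner's symbol alone, so a class can hold partners with other functions. On this basis, 41 genes are opposite developmental transcription factors or belong to families listed with them. Of these, 23 were at the floor in both libraries. They include Dlx6os1, Hoxa11os, Six3os1 and Otx2os1, whose partners pattern the embryo. In the group 7 genes passed 0.5 FPKM, with a median log2 ratio of 0.64 against 0.30 for all annotated genes. Of these 7, Prox2os and Sox5os5 were 2-fold higher (28.6%), against 14.0% of all annotated genes. So few genes do not allow a trait of the group to be read from these values. Zeb2os, opposite a zinc finger repressor gene active in myeloid and lymphoid cells, stood at 1.43 FPKM (CIA) and 2.91 FPKM (healthy), a log2 ratio of -0.98 just inside 2-fold. Both of its transcripts past 0.5 FPKM were lower in the CIA library, at -1.01 and -0.81. Kdm6bos, opposite a histone H3 lysine demethylase gene of activated macrophages and placed in this group by the list, stood at 0.642 and 0.377 FPKM.

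Of the 8 genes whose partner symbols are on the immune and inflammation list, 4 were at the floor in both libraries. Among these 8, Tnfsf13os alone passed 0.5 FPKM. Il1bos, opposite the gene of interleukin 1 beta, stood at 0.115 FPKM (CIA) and 0.0238 FPKM (healthy). Ptgs2os2, next to the gene of the prostaglandin enzyme COX-2, stood at 0.204 and 0.244 FPKM, and Ptgs2os at the floor in both. Levels this low allow no reading of a direction. Faddos, opposite the gene of the death receptor adaptor FADD, passed 0.5 FPKM but falls outside the list, and was nearly level at 0.786 and 0.757 FPKM. Junos, Map2k3os and Zfp335os, described above, also passed 0.5 FPKM and fall outside it, Junos only as a sum of transcripts below that limit.

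For the remaining groups, the background over all annotated genes was 14.0% higher and 4.20% lower, with a median of 0.30. Groups with only 3 or 5 genes past 0.5 FPKM are too small to set against it. In the metabolism and transport group 3 of 9 passed, Dhrs13os and Ict1os 2-fold higher and Slc36a3os at 1.68 against 0.800 FPKM. In the cytoskeleton and trafficking group 5 of 15 passed, with a median of -0.04 and Arhgap27os3 2-fold lower. In the group listed as chromatin, RNA and translation 5 of 11 passed, with a median of 0.20 and no gene 2-fold apart. Of these 5, Ccdc142os and Ccdc34os were placed there by the letters Ccdc alone, so the median does not describe a shared function. The remaining 198 genes, of which 66 passed, had 5 higher (7.58%) and 2 lower (3.03%) and a median of 0.32. Among them Dnmt3aos, opposite a DNA methyltransferase gene of blood stem cells, stood at 1.02 FPKM (CIA) and 0.806 FPKM (healthy).

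At 10 partners, 2 or 3 opposite-strand genes passed 0.5 FPKM, 22 genes in all. At 8 of these partners the genes lay on the same side of 0. Most annotated genes, 1925 of 2765, lay above 0, and how often unrelated genes share a side was not computed. Against the common shift of 0.30, the genes at Bcas3 (0.146 and 0.662) and Prkag2 (0.184 and 0.791) also lay on different sides. At Rapgef4, which encodes the cyclic AMP sensor Epac2, Rapgef4os1 stood at 0.994 against 0.571 FPKM, Rapgef4os2 at 2.06 against 0.995 FPKM and Rapgef4os3 at 1.82 against 1.20 FPKM, all higher in the CIA library. Rsf1os1 (1.64 against 2.04 FPKM) and Rsf1os2 (0.509 against 0.810 FPKM), at a chromatin remodelling gene, were both lower in the CIA library. So were Usp46os1 (1.73 against 2.08 FPKM) and Usp46os2 (2.60 against 3.25 FPKM), at a deubiquitinase gene.

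At Ube4b and Pitpnm2 the genes went different ways. Ube4bos2, at the ubiquitin ligase gene Ube4b, stood at 0.696 FPKM (CIA) and 1.13 FPKM (healthy), while Ube4bos3 stood at 2.65 and 1.54 FPKM and Ube4bos1 at 1.25 and 0.952 FPKM. Pitpnm2os2, which lies over a phosphatidylinositol transfer gene but not over its exons, stood at 4.39 and 2.18 FPKM, while Pitpnm2os1 at the same gene stood at 0.540 and 0.634 FPKM.

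Assembled RNA inside the partner's introns, away from its opposite-strand genes, was the nearest to a measure of the partner that the files hold. It was present for 33 partners of the 87 genes, most often without a strand. It therefore cannot be assigned to the partner and is not a level of the partner's mRNA. The summed intronic RNA was above 0 on the log2 ratio scale for 28 of the 33, with a median of 0.40, against 0.36 for the most abundant opposite-strand gene of each. Over all annotated genes past 0.5 FPKM, 1925 of 2765 were above 0, with a median of 0.30. The same share over all intronic RNA was not computed, so the 28 cannot be read as a trait of these partners. Across these 33 partners the ratio of the intronic RNA and that of the opposite-strand gene had a Spearman rank correlation of 0.19 and a Pearson correlation of 0.09, a description only, since all points come from the same 2 libraries.

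For single partners, intronic RNA of Rapgef4 stood at 18.3 FPKM (CIA) and 9.14 FPKM (healthy), and that of Pitpnm2 at 25.2 and 13.4 FPKM. Intronic RNA of Brip1 was lower in the CIA library, at 7.22 and 9.11 FPKM, as was Brip1os. At Prox2 the intronic RNA was nearly level, at 2.87 and 3.19 FPKM, while Prox2os was 2-fold higher in the CIA library. At Ino80d it stood at 5.90 and 8.28 FPKM, lower in the CIA library, while Ino80dos was higher.

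**Figure D5:**
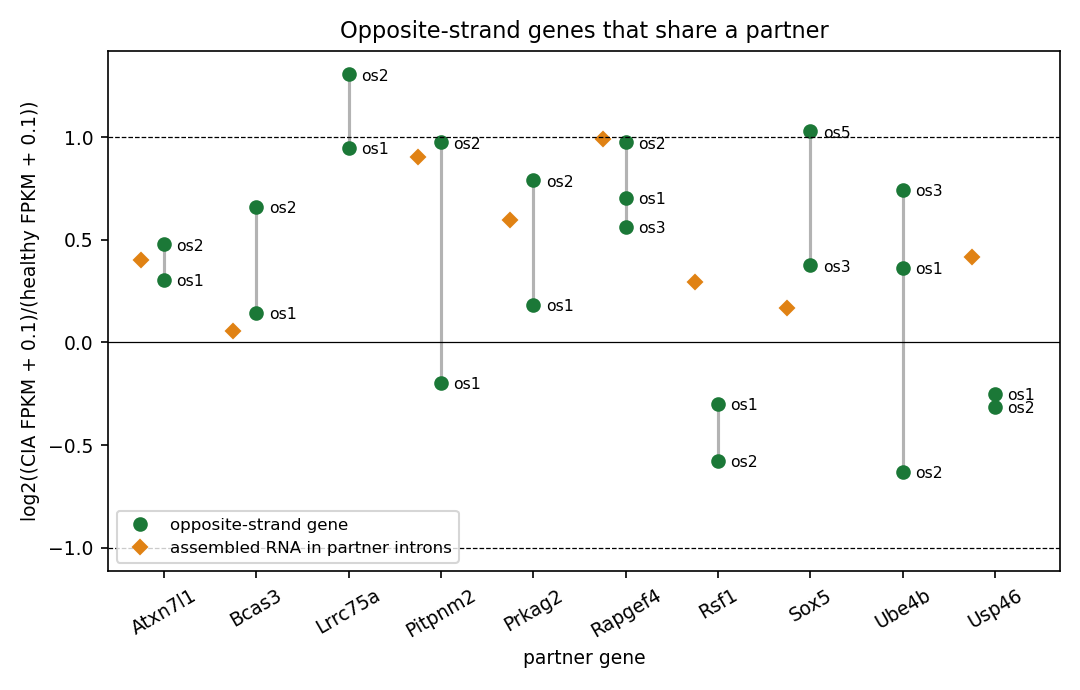
Log2 ratio of the CIA to the healthy library (y axis, with 0.1 FPKM added) for the 10 partners with several opposite-strand genes past 0.5 FPKM. Green circles are the 22 opposite-strand genes with the end of their name, and orange diamonds the summed assembled RNA in the introns of the partner, where there was any; circles of one partner lie on the same side of 0 except at Pitpnm2 and Ube4b.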

How the data were processed

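Per the labels' protocols, total RNA of spleen cells was extracted with TRIzol and depleted of ribosomal RNA with Ribo-Zero, giving 1 library per group. StringTie is named in the submitters' processing notes; the sources used here name no aligner, build, strand setting or test for the p-values (not given in the sources used here). FPKM was deposited by the authors per transcript in 2 tables, with 0.0001 standing for 0, per the file headers. Per the file headers, the deposited tables also hold a ratio (fold), its log2, a p-value and a q-value. In the CIA column 2 damaged cells, of no opposite-strand gene, were resolved by matching their numbers to the deposited ratio. All 15172 annotated transcripts had GENCODE M21 coordinates, so positions are those of GRCm38.

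FPKM was summed per gene over annotated transcripts. Genes reaching 0.5 FPKM in a library were retained, and a 2-fold rule with a pseudocount of 0.1 FPKM stood in place of a test. Partners were found by name, and positions and overlaps come from GENCODE. Promoter windows are from RefSeq. Genes named were those 2-fold apart, the 15 most abundant, those at the floor in 1 library, those with immune partners and the head-to-head genes; all others named in the text were chosen after their values were seen. The members and lists were chosen with earlier results of these data known. Alternatives were other pseudocounts, filters, centring, transcript level, locus sums, a 4-fold rule and genes without coding overlap. The software was Python 3.11.15 with pandas 2.3.3, numpy 2.4.6, matplotlib 3.10.9 and scipy 1.17.1.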

Additional observations from a re-analysis of the deposited data

Results flagged for a closer look

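The assembled transcripts lie outside the annotated table, and 8 of those that carry the name of an opposite-strand gene had a level in the CIA library at least 2-fold that in the healthy one. The highest was MSTRG.21871.1, a piece of 1 exon and 303 bases without a strand in an intron of Pax6os1, at 28.1 FPKM in the CIA library and listed at 0 in the healthy library (log2 ratio 8.14, which depends on the pseudocount). Pax6os1 itself was at the floor in both libraries. The other pieces without a strand were MSTRG.21859.1 and MSTRG.21858.1 at Wt1os (2.60 and 2.20), MSTRG.11593.1 at Zmiz1os1 (2.19), MSTRG.26397.1 at Junos (1.79) and MSTRG.23034.1 at Zfp335os (1.01). In the authors' deposited table the p of each of these 6 was 1. MSTRG.7067.3 (2.57) and MSTRG.7067.1 (1.23) are spliced, stranded transcripts at Arhgap27os3, whose annotated form was lower in the CIA library. On the lower side, 3 of the 26 were past 2-fold, MSTRG.30860.1 at Mkln1os (-2.03), MSTRG.35490.1 at Tspan32os (-1.58) and MSTRG.801.1 at Ino80dos (-1.33). Over all assembled transcripts with at least 0.5 FPKM in a library, 17.2% were past 2-fold on the higher and 11.1% on the lower side. No cause of these values was tested.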

How the results depend on the processing

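No paired analysis was possible because a single library represents each group. The median log2 ratio of the opposite-strand genes, 0.36, stayed above 0 under every setting tried and was lowest, at 0.07, after centring on the median of all annotated genes. The counts of 10 higher and 3 lower genes did not hold as well. Lowering the pseudocount to 0.01 FPKM gave 16 and 5, and raising it to 1 FPKM gave 1 and 0. The counts were 31 and 8 with no filter other than being above the floor, 2 and 6 after centring, 19 and 7 for single transcripts, 2 and 1 for genes without coding exon overlap, and 1 and 1 under the 4-fold rule. By position, 1 head-to-head gene, 1 with span overlap only and 1 without overlap were 2-fold higher, which are smaller sets by construction. Locus sums gave 13 and 4, and a filter of 1 FPKM gave 7 and 2. The shares of all annotated genes under these other pseudocounts, filters, sums, centring and the 4-fold rule were not computed. The changes in the counts therefore cannot be read as particular to opposite-strand genes. Adding assembled transcripts reversed Arhgap27os3 to 0.93. Of the 42 genes named by rule, 36 kept their side of 2-fold and moved by under 1.5-fold with locus sums. A gene without assembled transcripts keeps its value under that setting by construction, and only 17 of the 87 genes had any. The 36 therefore do not measure stability, and the moves among those 17 are given above. With a pseudocount of 1 FPKM, 12 of the 13 genes at least 2-fold apart came within 2-fold, Dhrs13os being the exception. Depth is unknown, so no counting error can be given.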
